A study of Mus musculus and Mus musculus
Oryx dammah with 30 samples.

Results

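The genes described here mostly encode proteins of the spliceosome and factors that steer it. They were taken as every protein-coding gene whose symbol starts with Snrp (Snrpn left out), Sf3a, Sf3b, Srsf, Prpf or Lsm, together with Cdc5l. This gave 59 of 53023 genes in the table of the 4-cell embryos and in that of the replication experiment, and 60 of 55364 genes in the table of the 2-cell embryos, which also lists Lsmem2. Lsmem1 and Lsmem2 carry the Lsm prefix but encode membrane proteins that are no Sm-like proteins, and both stayed under the limit on low values.

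In nuclear transfer (NT), the nucleus of a differentiated cell is brought into an egg or embryo, and the transcripts made afterwards show how far the transferred genome is reprogrammed. Here the donors were C2C12 cells, a myoblast line from the C3H strain, and the recipients were embryos made by in vitro fertilization from the C57BL/6 and DBA/2 strains. All groups were held in 0.1 µg/ml demecolcine, which arrests the cell cycle, and were cultured for 24 h after transfer. NT 4-cell embryos received at 46 h post insemination were kept without (3 libraries) or with (3 libraries) α-amanitin, an inhibitor of RNA polymerase II, as pools of 3 embryos. NT 2-cell embryos, pools of 5, were kept without (6 libraries) or with (6 libraries) α-amanitin, and each of these groups holds 3 libraries transferred at 21 h and 3 transferred at 30 h. The replication experiment compared 2 groups of NT 4-cell embryos without α-amanitin, called D and DR by the labels (3 libraries each, pools of 4). The study compared transfer with and without DNA replication there, but the labels do not say which letters stand for which. The libraries hold RNA of the recipient embryo as well as RNA from the donor genome, and the values do not part these sources. The values are FPKM (fragments counted, scaled to the length of the gene and the size of the library), and a log2 change below is a difference of means of log2(FPKM + 1), which understates the change of low genes. Genes that reached 1 FPKM in 3 or more libraries of a comparison were tested together with limma, and a gene was called at a Benjamini-Hochberg adjusted p under 0.05. The study describes the 3 libraries of a condition as independent biological replicates.

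Removal of introns is carried out by the U1, U2, U4/U6 and U5 snRNPs, particles of a small nuclear RNA and proteins. Around each of these RNAs except U6 sits a ring of Sm proteins (Snrpb, Snrpd1, Snrpd2, Snrpd3, Snrpe, Snrpf, Snrpg), while U6 carries the Lsm2 to Lsm8 ring and Lsm1 takes part in a related ring that works in mRNA decay. SF3a and SF3b are parts of the U2 snRNP that hold it at the branch site, Prp proteins drive assembly and the catalytic steps, and SR proteins bind exons and guide the choice of splice sites. In early mouse embryos the supply of these proteins starts from maternal mRNA, and zygotic transcription takes over during the 2-cell stage.

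In the 2-cell table, the libraries fell into 2 column sets by their headers, one with the NT and Am columns and one with the R and RAm columns, each with 3 untreated and 3 amanitin libraries. The headers do not say which set was transferred at 21 h and which at 30 h, so no result below is tied to a transfer time. The RAm libraries stood apart from all others. Genes outside the mitochondrial genome that share at least 50% of their 31-base words with mitochondrial transcripts took 36.9 to 40.7% of length-weighted FPKM in RAm, 19.1 to 22.7% in Am, 8.26 to 16.0% in NT and 6.89 to 9.53% in R. The ERCC spike-in RNAs, which were added after lysis, took 8.99% ± 1.90 (SD, n = 6) with α-amanitin and 3.54% ± 1.49 (SD, n = 6) without it, a difference that gave p = 0.00216 in a two-sided exact permutation test. The summed FPKM of 12 oocyte and early embryo markers was 1127 to 1565 in RAm and 6756 to 7734 in Am, beside 8428 to 12305 in NT and 7254 to 9043 in R, and none of the 12 was at 0 in all libraries of any of these groups. The summed FPKM of 12 myoblast and mesenchymal markers was 1840 to 2288 in Am, 330 to 826 in RAm, 571 to 1747 in NT and 97.0 to 276 in R. Of the 12, 6 reached 1 FPKM in all NT libraries and 4 in all libraries of each of Am, RAm and R. Myog was at 0 in every 2-cell library, Myf5 in every Am and RAm library, Myod1 in every R and RAm library and Tagln in every RAm library. Fewer cells and less RNA per cell cannot be told apart in such pools, and the part of these differences in the results was not tested. The 2-cell contrast is therefore given for all libraries and within each column set, and the NT and Am columns alone are the result without the RAm libraries.

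Promoter windows are shown for 5 genes the results turn on: Cdc5l, which was called in every amanitin contrast; Srsf3 and Snrpc, which were called in both 2-cell column sets; Srsf7, which was called in opposite directions in 4-cell and 2-cell embryos; and Snrpa, which differed most between the column sets. Each runs from 250 bases before to 50 bases after the start of the gene (RefSeq, GRCm38.p6), 5′ to 3′ on the strand of the gene, with matches to any of 5 short motifs on either strand in capitals.
Cdc5l, chr17:45433658-45433957, minus strand: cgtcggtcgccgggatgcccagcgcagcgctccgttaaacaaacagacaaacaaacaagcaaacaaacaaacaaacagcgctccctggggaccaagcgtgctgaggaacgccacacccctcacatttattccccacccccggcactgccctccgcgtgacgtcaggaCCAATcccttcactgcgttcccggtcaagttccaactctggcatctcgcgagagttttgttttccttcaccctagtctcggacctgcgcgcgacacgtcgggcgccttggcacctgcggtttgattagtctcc
Srsf3, chr17:29032410-29032709, plus strand: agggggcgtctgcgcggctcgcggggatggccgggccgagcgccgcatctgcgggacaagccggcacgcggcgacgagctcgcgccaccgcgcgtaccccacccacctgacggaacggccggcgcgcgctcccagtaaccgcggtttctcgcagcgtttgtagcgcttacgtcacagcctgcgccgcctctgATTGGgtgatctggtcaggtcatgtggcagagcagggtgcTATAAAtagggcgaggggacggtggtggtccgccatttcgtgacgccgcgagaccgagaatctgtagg
Srsf7, chr17:80207256-80207555, minus strand: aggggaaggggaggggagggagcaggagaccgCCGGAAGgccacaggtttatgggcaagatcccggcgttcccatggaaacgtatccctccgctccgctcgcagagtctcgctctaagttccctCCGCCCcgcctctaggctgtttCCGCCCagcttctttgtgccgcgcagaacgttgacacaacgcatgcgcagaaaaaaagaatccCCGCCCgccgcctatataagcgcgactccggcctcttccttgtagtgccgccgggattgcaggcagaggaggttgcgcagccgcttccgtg
Snrpc, chr17:27839837-27840136, plus strand: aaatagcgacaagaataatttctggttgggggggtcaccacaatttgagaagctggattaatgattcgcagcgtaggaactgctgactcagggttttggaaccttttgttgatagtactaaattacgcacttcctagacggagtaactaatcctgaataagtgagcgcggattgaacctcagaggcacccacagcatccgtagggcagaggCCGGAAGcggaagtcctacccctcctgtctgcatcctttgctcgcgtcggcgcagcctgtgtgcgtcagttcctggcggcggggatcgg
Snrpa, chr7:27196222-27196521, minus strand: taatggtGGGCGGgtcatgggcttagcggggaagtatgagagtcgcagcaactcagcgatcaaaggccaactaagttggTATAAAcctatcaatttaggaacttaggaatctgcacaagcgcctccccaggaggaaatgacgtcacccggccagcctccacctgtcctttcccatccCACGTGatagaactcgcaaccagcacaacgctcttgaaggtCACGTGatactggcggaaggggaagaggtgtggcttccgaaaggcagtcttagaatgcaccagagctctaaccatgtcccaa

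The motifs searched were the CCAAT box (CCAAT), the GC box (GGGCGG), the TATA box (TATAAA), the E box (CACGTG) and an ETS motif (CCGGAAG), none of which holds another. A window was found for 51 members. The genes without one include Lsm1, Lsm12, Lsm4, Prpf18, Sf3b4, Sf3b5, Snrpb and Snrpd1. The ETS motif was present in 18 of the 51 windows (35.3%) and in 9.12% of the 27025 windows of all genes. The GC box was present in 34 of 51 (66.7%) beside 35.9% of all windows, and the CCAAT box in 23 (45.1%) beside 37.9%. The TATA box was found in 4 of 51 (7.84%) beside 14.2%, and the E box in 4 (7.84%) beside 7.24%. The median GC content was 59.0% for the members and 52.7% for all windows. Of the 12 members higher without α-amanitin in the NT and Am columns, 11 had a window, and 5 of these held the ETS motif, 5 the CCAAT box, 7 the GC box, 3 the TATA box and 0 the E box. The Srsf3 window held 1 CCAAT box and 1 TATA box, that of Srsf7 held 3 GC boxes and 1 ETS motif, and that of Snrpa held 1 GC box, 1 TATA box and 2 E boxes. These are matches of letters, and factor binding was not measured.

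The members differed widely in level. Among untreated NT 4-cell embryos, the highest mean FPKM was that of Snrpd1 (527 ± 56.4, SD, n = 3), followed by Snrpb (504 ± 77.8) and Snrpe (460 ± 17.5), all of the Sm ring, and by the SR protein gene Srsf7 (348 ± 57.1). Snrpd1 was read at 510, 482 and 591 FPKM and Snrpb at 417, 527 and 568, so the order of the first 2 lies within their spread. The median of the group means was 160 FPKM for the 7 Sm genes (65.4 to 527), 83.8 for Lsm1 to Lsm8 (26.9 to 212), 70.8 for the 4 genes of proteins specific to the U1 or U2 snRNP (46.4 to 201), 36.5 for the 11 SR protein genes (0.0490 to 348) and 36.2 for the 9 SF3a and SF3b genes (5.41 to 181). It was 8.93 FPKM for the 14 Prp genes with Cdc5l, of which Cdc5l was the highest at 74.7. Per length, the median of the ring proteins was thus above that of the Prp factors. In untreated 2-cell embryos the Sm genes again had the highest median (99.0 FPKM) and the Prp group the lowest of the splicing roles (7.37), and in D embryos these medians were 248 and 8.23. The levels come from tables normalized apart, and no test was made across them.

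The first comparison asked which of these genes needed RNA polymerase II activity after transfer to reach their level in NT 4-cell embryos. Most did not pass the test. Of the 59 members, 54 passed the limit on low values; Lsm14b, Srsf4, Srsf12, Prpf40b and Lsmem1 did not. Cdc5l, Sf3b4 and Lsm11 were higher without α-amanitin and Srsf7 was lower. The 3 higher calls make 5.56% of the members tested, beside 11.1% of the 9884 genes tested that were called higher, and the 1 lower call makes 1.85% beside 1.13%. With the further criterion of a 4-fold change, 2 members were called (Cdc5l and Sf3b4), where 6.57% of all genes were. The median log2 change was 0.29 for the members and 0.37 for all genes tested. Scaled by the median of ratios, the 2 medians became -0.02 and 0.12. Under this scaling 2 members were higher (Cdc5l and Sf3b4), beside 7.59% of all genes, and 3 lower (Lsm4, Snrpf and Srsf7), beside 2.29%. The share of reads from the mitochondrial genome was 11.4 to 19.0% with α-amanitin and 5.76 to 6.09% without, and its part in these changes was not tested. The 12 oocyte and early embryo markers summed to 12222 to 16091 FPKM with α-amanitin and 8965 to 9967 without. The 12 myoblast and mesenchymal markers summed to 112 to 1161 FPKM with α-amanitin and 57.5 to 154 without. Of these, Col1a1 was at 0 in every library, and Myf5, Myog and Tagln were at 0 in every untreated library. The 5 cumulus cell markers were at 0 throughout.

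Cdc5l, whose product is a core component of the Prp19 complex that activates the spliceosome, had the largest change of the members. It lies on chromosome 17 (mm10, 45391892 to 45433707, minus strand). It was read at 1.94, 3.24 and 3.79 FPKM with α-amanitin and at 74.0, 49.2 and 101 FPKM without it, from 11 to 18 and from 269 to 652 reads. Every untreated library lay above every amanitin library, the ratio of the means was 25.0, and the log2 change was 4.22 ± 0.38 (SE, adjusted p = 0.00202, limma). It was the one member called whichever library was left out, with a log2 change of 3.97 to 4.48.

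Sf3b4, the gene of an SF3b subunit that contacts the RNA near the branch site, lies on chromosome 3 (96172332 to 96177564, plus strand). It was read at 11.8, 4.48 and 2.04 FPKM with α-amanitin and at 36.7, 28.1 and 32.1 FPKM without it. The groups did not overlap, and the log2 change was 2.47 ± 0.51 (SE, adjusted p = 0.0200, limma). The amanitin libraries were spread almost as widely as their mean. The call was lost without S15, S17, S18 or S7 (adjusted p = 0.0939, 0.0818, 0.0565 and 0.0909), and when the limit on low values was dropped (0.0675). Its 8 fellow SF3a and SF3b genes all had positive log2 changes (from 0.18 to 1.01) of which none passed the test. Sf3b1, the gene of the scaffold of SF3b, was read at 46.0, 45.3 and 18.4 FPKM with α-amanitin and at 89.6, 62.2 and 59.1 FPKM without it, a log2 change of 1.01 ± 0.39 (SE, adjusted p = 0.128, limma).

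Lsm11, whose product belongs to the U7 snRNP that processes histone mRNAs and not to the spliceosome, was low throughout. It was read at 0.2998, 0 and 0.195 FPKM with α-amanitin, from 6, 0 and 2 reads, and at 2.45, 1.27 and 1.86 FPKM without it, from 36, 15 and 26 reads. It passed the limit on low values only through the untreated libraries, so its call (log2 change 1.28 ± 0.34, SE, adjusted p = 0.0425, limma) is no independent support, and it was lost without S18 or S8 (adjusted p = 0.114 and 0.0798). It was also lost under median-of-ratios scaling (0.0638), with a pseudocount of 0.1 (0.0765) and without the limit (0.182), and could not be tested without any one of the untreated libraries.

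Srsf7, the gene of an SR protein, was the exception in direction. It was read at 651, 667 and 521 FPKM with α-amanitin and at 284, 366 and 394 FPKM without it. All 3 amanitin libraries were above the untreated ones, and the log2 change was -0.82 ± 0.21 (SE, adjusted p = 0.0402, limma). Leaving out any library but S8 raised the adjusted p above 0.05 (S15 0.175, S16 0.0760, S17 0.141, S18 0.131, S7 0.0993). Under the median-of-ratios scaling it was -1.13 with an adjusted p of 0.0196, and the call was lost with a pseudocount of 0.1 (0.0541) or without the limit (0.126).

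The other groups of members had no call in 4-cell embryos. The Sm genes ranged from -0.72 to 0.45 on the log2 scale, the U1 and U2 genes from -0.33 to 0.40 and Lsm1 to Lsm8 from -0.71 to 0.84. Snrpe was read at 549, 533 and 608 FPKM with α-amanitin and 479, 456 and 445 without it, a log2 change of -0.29 ± 0.18 (SE, adjusted p = 0.316, limma), although its groups did not overlap. Ranges of the 2 groups did not overlap for 25 members, 17 with all untreated libraries above and 8 with all below, beside 27.6% and 7.56% of all genes tested. Prpf8, the gene of the protein at the catalytic centre, was read at 2.98, 5.66 and 3.12 FPKM with α-amanitin and 5.59, 4.76 and 9.30 without it (log2 change 0.61 ± 0.43, SE, adjusted p = 0.385, limma). Prpf19, the gene of the ubiquitin ligase at the core of the Prp19 complex to which Cdc5l belongs, was read at 1.77, 2.42 and 0.0865 FPKM with α-amanitin and 1.51, 2.63 and 1.27 without it (log2 change 0.34 ± 0.50, SE, adjusted p = 0.696, limma), and the groups overlapped.

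**Figure D1:**
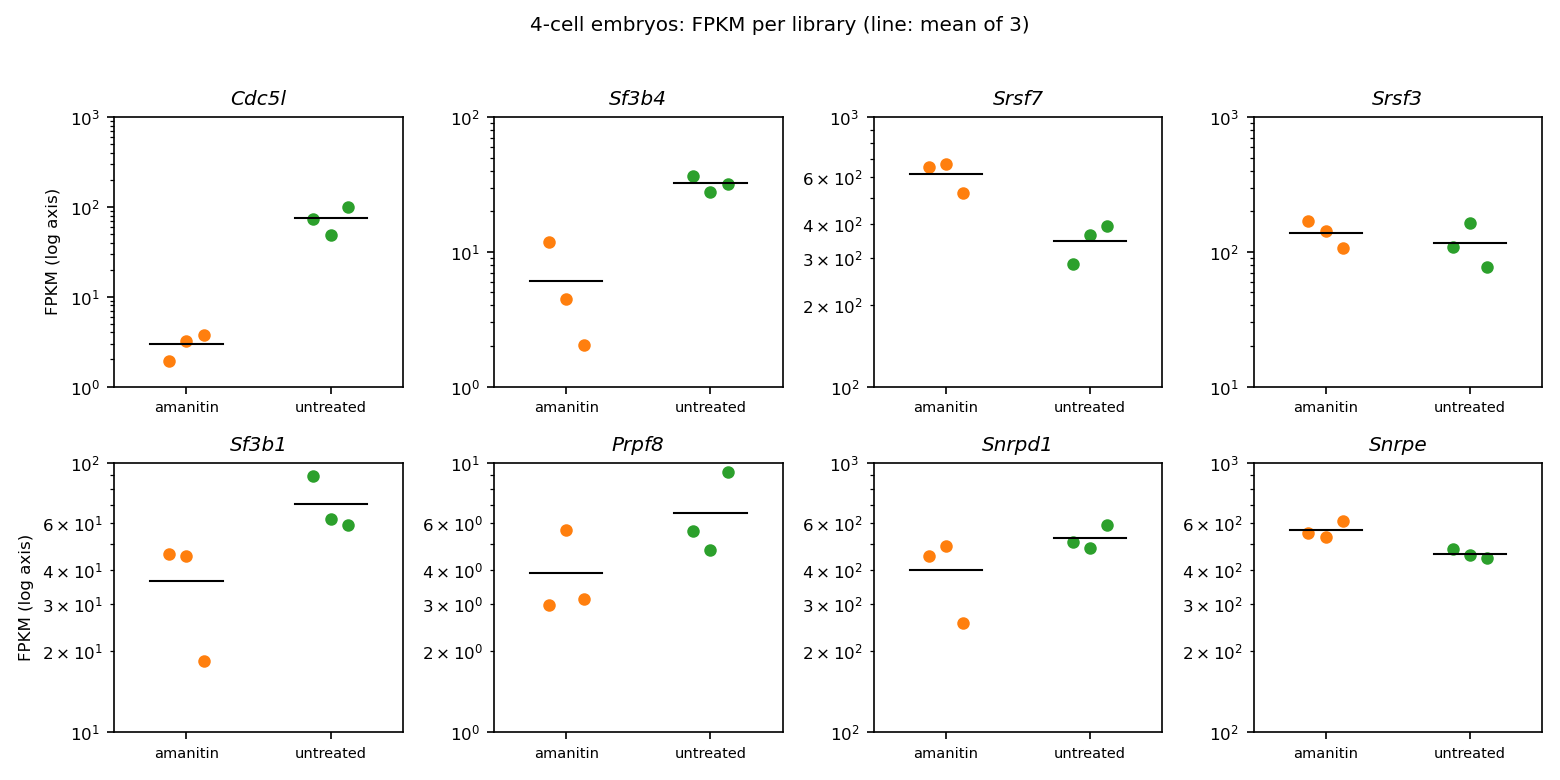
FPKM of 8 members in each NT 4-cell library (points, log axis) with α-amanitin (orange, n = 3) or without (green, n = 3), and the group mean (line). Cdc5l and Sf3b4 sit higher in all 3 untreated libraries, Srsf7 sits lower in all 3, and the points of Srsf3 and Prpf8 overlap.

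A list of 80 other spliceosome genes was counted beside the members. Of 77 tested in 4-cell embryos, 11 (14.3%) were higher without α-amanitin and 0 were lower, beside 11.1% and 1.13% of all genes, and the median log2 change was 0.42 beside 0.37. The largest rises were those of Clk1 and Clk2, genes of kinases that phosphorylate SR proteins. Clk1 was read at 0.278, 1.51 and 0.232 FPKM with α-amanitin and at 48.7, 14.9 and 15.9 without it (log2 change 3.91 ± 0.56, SE, adjusted p = 0.00723, limma), and Clk2 at 0.0609, 0.166 and 0 against 5.30, 3.92 and 5.41 (2.44 ± 0.36, adjusted p = 0.00755). The groups of both genes did not overlap, but both passed the limit on low values only through the untreated libraries, so their calls are no independent support. The same holds for Clk3, Clk4, Cwc22 and Luc7l2 among the 11, and the other 5 passed through the amanitin libraries as well.

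The second comparison put the same question to NT 2-cell embryos. Over all 12 libraries, 55 of the 60 members passed the limit on low values (Lsm11, Lsmem1, Lsmem2, Prpf40b and Srsf12 did not). Without α-amanitin 38 members were higher, which is 69.1% of those tested beside 38.9% of all 17196 genes, and 0 were lower beside 8.51%. With the column set as a covariate, 46 were higher beside 44.6%, the 38 among them. Of the 38, Sf3b3 passed the limit only through the untreated libraries, so its call is no support, and the other 37 passed through the amanitin libraries as well. The median log2 change was 1.42 for the members and 0.67 for all genes. By role, 5 of 7 Sm genes, 4 of 4 U1 and U2 genes, 8 of 9 SF3a and SF3b genes, 9 of 13 Prp genes with Cdc5l, 8 of 10 SR protein genes and 2 of 8 of Lsm1 to Lsm8 were higher. Of the other Lsm genes 2 of 4 were higher, Lsm10 and Lsm12. Scaled by the median of ratios, 21 members were higher and 3 (Lsm4, Lsm14b and Srsf4) lower, beside 21.6% and 15.2% of all genes, and scaled to the spike-ins 53 were higher and 0 lower, beside 73.2% and 1.54%. Ranges of all untreated and all amanitin libraries did not overlap for 21 members, all with the untreated above, where 16.3% of all genes were so placed.

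**Figure D2:**
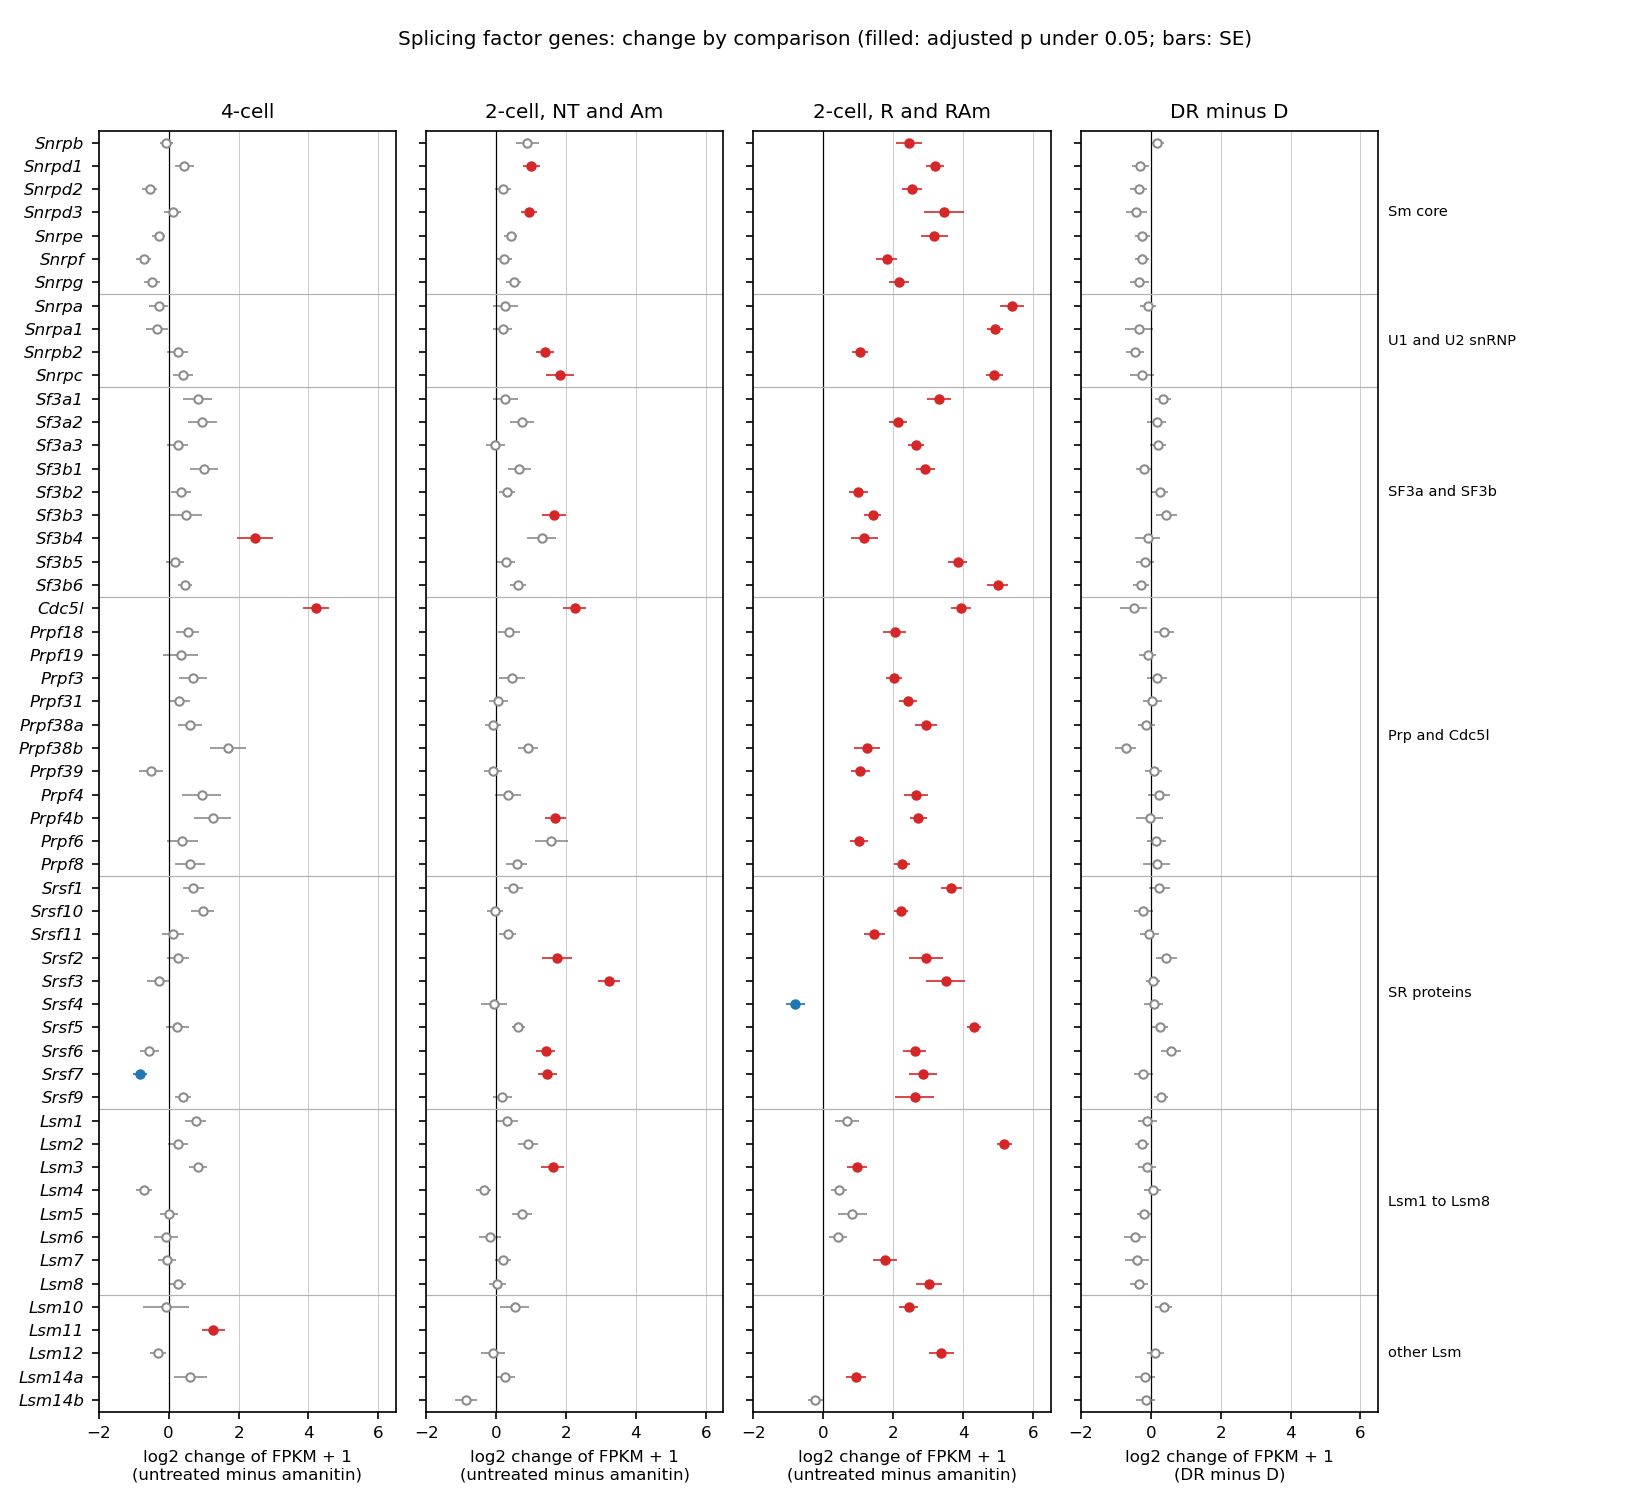
Log2 change of FPKM + 1 of the members tested (by role, 1 member not drawn) in 4-cell embryos, in each 2-cell column set and in DR against D, with its SE (bars). Filled points passed an adjusted p under 0.05 (red higher, blue lower). Over all members tested, 3 of 54 were higher and 1 lower in 4-cell embryos (11.1% and 1.13% of all genes), 12 of 54 higher in the NT and Am columns (12.7%), 48 of 54 higher and 1 lower in the R and RAm columns (60.5% and 16.4%), where 15 of the 48 passed the limit on low values only through R, and 0 of 55 called in DR against D.

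In the NT and Am columns alone, 12 of 54 members tested (22.2%) were higher without α-amanitin beside 12.7% of 14285 genes, and 0 were lower beside 4.18%. Under median-of-ratios scaling 10 were higher beside 8.83% of all genes, and Snrpd1 and Snrpd3 were the 2 calls lost. Under spike-in scaling 27 were higher beside 30.9% of all genes, and without the limit on low values 2 were, beside 477 of 35081 genes. The median log2 change was 0.43 for the members and 0.26 for all genes. With the 4-fold criterion 2 members, Srsf3 and Cdc5l, were called, where 3.78% of all genes were. The 12 were the SR protein genes Srsf2, Srsf3, Srsf6 and Srsf7, the Sm genes Snrpd1 and Snrpd3, Snrpb2 and Snrpc of the U2 and U1 snRNPs, Sf3b3, Lsm3, Prpf4b and Cdc5l. Sf3b3 passed the limit on low values only through the NT libraries, so its call is no support. All 12 were also called higher in the R and RAm columns, where 5 of them (Cdc5l, Prpf4b, Sf3b3, Srsf2 and Srsf6) passed the limit only through the R libraries and 7 through the RAm libraries too. Leaving out 1 library gave 5 members without Am1 or Am2, 3 without Am3, 6 without NT1 or NT2 and 15 without NT3. Among all genes, 610 of 13578 were higher without Am1, 818 of 13647 without Am2 and 621 of 13641 without Am3. The numbers were 540 of 13081 without NT1, 611 of 13271 without NT2 and 2074 of 13281 without NT3, beside 1814 of 14285 with all libraries. Cdc5l and Srsf3 were the 2 members called each time.

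In the R and RAm columns alone, 48 of 54 members (88.9%) were higher beside 60.5% of 14387 genes, and 1, Srsf4, was lower (1.85%) beside 16.4%. With the 4-fold criterion 35 were called, where 39.2% of all genes were. Of the 54 members, 15 passed the limit on low values only through the R libraries and all 15 were called higher, so these calls are no support; of the other 39, which passed through the RAm libraries as well, 33 were higher. The 15 include Cdc5l, Prpf8 and Sf3a2, which reached 1 FPKM in no RAm library, and Snrpa, Prpf4b, Srsf2 and Srsf6. The median log2 change was 2.45 for the members and 1.31 for all genes. All 7 Sm genes, 4 U1 and U2 genes, 9 SF3a and SF3b genes and 12 Prp genes with Cdc5l were higher. So were 9 of 10 SR protein genes and, outside Lsm1 to Lsm8, 3 of 4 Lsm genes. Of Lsm1 to Lsm8, only Lsm2, Lsm3, Lsm7 and Lsm8 were called, and Lsm1, Lsm4, Lsm5 and Lsm6 had log2 changes of 0.41 to 0.83 with no call. Scaled by the median of ratios, 33 members were higher and 4 (Lsm4, Lsm6, Lsm14b and Srsf4) lower, so that Lsm4 and Lsm6 turned their direction, beside 36.9% and 29.8% of all genes. Scaled to the spike-ins 54 of 55 were higher and 0 lower, beside 83.0% and 4.20%. The members' median stayed above that of all genes under each scaling, by 1.14 as deposited, 1.03 by the median of ratios and 1.72 by the spike-ins. With a pseudocount of 0.1 this gap was smaller, at 0.85. It then moved from 0.17 to 0.12 in the NT and Am columns and from 0.75 to 0.50 over all 2-cell libraries.

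The column sets lay further apart in the amanitin libraries than in the untreated ones. The median over 55 members of the log2 difference of RAm from Am was -1.81 (-0.70 over all 17196 genes), and 51 members were lower in RAm. The same median for R against NT was 0.02 (0.07 over all genes), with 26 members lower in R. The difference of the amanitin contrast between the sets was tested itself: in the R set it was larger for 39 of 55 members (70.9%) beside 36.0% of all genes, and smaller for 0 beside 8.46%. Under median-of-ratios scaling the difference was larger for 21 and smaller for 4 (Lsm3, Prpf6, Snrpb2 and Srsf4), beside 20.4% and 18.8% of all genes. The set difference of a member was largest for Snrpa (5.13 ± 0.52, SE, adjusted p = 1.59e-05, limma), followed by Snrpa1 (4.72), Sf3b6 (4.36) and Lsm2 (4.25).

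**Figure D3:**
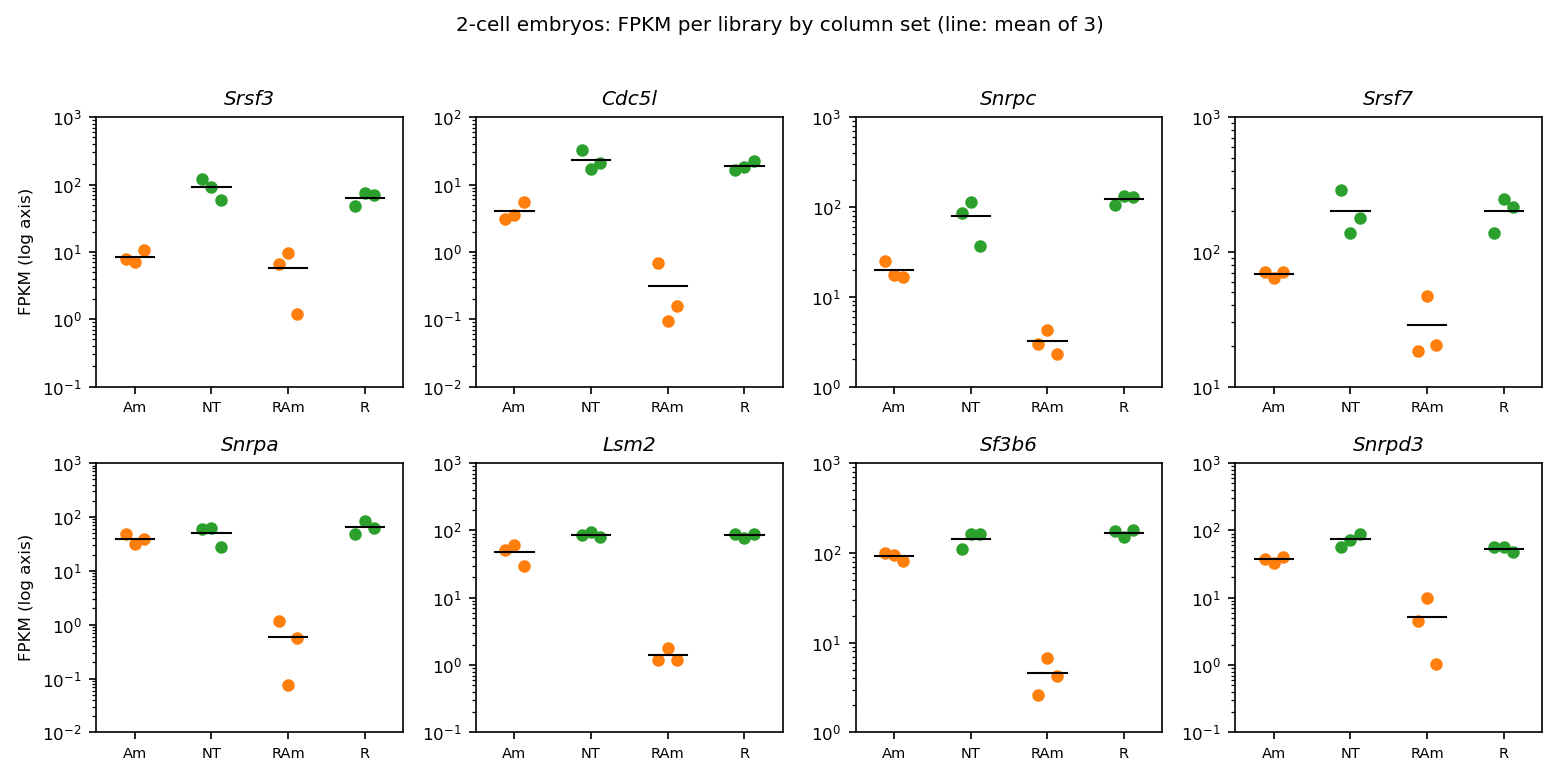
FPKM of 8 members in each NT 2-cell library (points, log axis) by column set, with α-amanitin (orange, Am and RAm, n = 3 each) or without (green, NT and R, n = 3 each), and the group mean (line). Srsf3, Cdc5l, Snrpc, Srsf7 and Snrpd3 are lower in Am than in NT and lower in RAm than in R. Of these, all but Srsf3 are lower in RAm than in Am too. Snrpa, Lsm2 and Sf3b6 are far lower in RAm than in Am, with NT and R close to each other (R minus NT 0.43, -0.03 and 0.23 on the log2 scale).

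Srsf3 encodes the smallest of the SR proteins and lies on chromosome 17 (29032673 to 29043366, plus strand). It was read at 7.84, 7.06 and 10.5 FPKM in Am against 121, 92.5 and 59.1 in NT, and at 6.55, 9.75 and 1.21 in RAm against 74.5, 69.6 and 47.6 in R. All 6 untreated libraries lay above all 6 amanitin libraries, and the log2 change was 3.24 ± 0.31 (SE, adjusted p = 0.00301, limma) in the first set and 3.50 ± 0.56 (SE, adjusted p = 8.08e-04) in the second. The difference between the sets was 0.26 ± 0.69 (SE, adjusted p = 0.780). Among the members, Srsf3 thus had the largest change in the NT and Am columns, where the ratio of means was 10.7.

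The other SR protein genes among the 12 shared calls were Srsf2, Srsf6 and Srsf7, which moved the same way, at different sizes. Srsf7 was read at 70.7, 64.2 and 70.4 FPKM in Am against 290, 137 and 177 in NT, and at 18.4, 47.3 and 20.4 in RAm against 247, 214 and 139 in R, with log2 changes of 1.47 ± 0.28 (SE, adjusted p = 0.0150, limma) and 2.85 ± 0.40 (adjusted p = 3.86e-04). Srsf2 was read at 11.6, 6.06 and 8.12 FPKM in Am against 51.1, 32.3 and 16.8 in NT, and at 0.286, 3.90 and 2.16 in RAm against 24.1, 19.1 and 16.9 in R. In neither of these genes did amanitin and untreated libraries overlap. Srsf6 was read at 8.63, 5.80 and 8.40 FPKM in Am and 24.0, 24.8 and 17.3 in NT, and at 0.506, 1.77 and 1.93 in RAm and 12.4, 12.04 and 15.4 in R. Srsf4 was the exception: 3.86, 1.80 and 3.46 FPKM in RAm against 1.24, 1.15 and 1.37 in R, a log2 change of -0.80 ± 0.28 (SE, adjusted p = 0.0299, limma), with overlapping values in the other set and the call lost under spike-in scaling.

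Cdc5l, the member with the largest change in 4-cell embryos, was also higher without α-amanitin in both 2-cell sets. It was read at 3.13, 3.53 and 5.48 FPKM in Am against 32.2, 17.1 and 20.8 in NT, and at 0.681, 0.0937 and 0.159 in RAm against 18.03, 22.3 and 16.5 in R. The log2 change was 2.25 ± 0.32 (SE, adjusted p = 0.00683, limma) in the first set and 3.94 ± 0.28 (adjusted p = 2.26e-05) in the second, where it passed the limit only through R and could not be tested without any one of the R libraries. The kinase gene Prpf4b followed the same order, with 3.35, 4.73 and 3.21 FPKM in Am against 17.9, 16.7 and 9.84 in NT, and 0.665, 1.24 and 0.866 in RAm against 11.04, 11.98 and 11.8 in R.

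Snrpc, the gene of a U1 protein that helps recognise the 5′ splice site, was read at 24.9, 17.5 and 16.6 FPKM in Am against 85.4, 115 and 36.5 in NT, and at 2.97, 4.29 and 2.32 in RAm against 131, 128 and 106 in R. Its log2 change was 1.83 ± 0.41 (SE, adjusted p = 0.0252, limma) and 4.89 ± 0.25 (adjusted p = 7.62e-06), and the difference between the sets passed the test (3.07 ± 0.52, adjusted p = 5.53e-04). Snrpd3, a member of the Sm ring, was read at 37.7, 32.7 and 40.7 FPKM in Am against 57.4, 73.0 and 90.02 in NT, and at 4.58, 10.04 and 1.04 in RAm against 56.3, 47.7 and 57.3 in R.

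A second pattern was a call in the R and RAm columns with none in the NT and Am columns. Among all genes too, more were called higher in the R and RAm columns (60.5%) than in the NT and Am columns (12.7%). Snrpa, whose U1 protein binds a stem loop of the U1 RNA, was read at 49.0, 31.6 and 38.2 FPKM in Am and 60.7, 62.6 and 27.3 in NT, which overlapped, and at 1.16, 0.0764 and 0.563 in RAm against 83.9, 63.6 and 48.8 in R. In the R and RAm columns Snrpa passed the limit on low values only through the R libraries, so its call there is no support. Snrpa1, whose product is a leucine-rich repeat protein of the U2 snRNP, was read at 78.0, 97.4 and 51.0 in Am and 66.8, 98.7 and 88.3 in NT, and at 4.21, 5.12 and 3.94 in RAm against 133, 168 and 187 in R. The log2 changes in the first set were 0.27 ± 0.35 (SE, adjusted p = 0.632, limma) and 0.19 ± 0.28 (adjusted p = 0.667).

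Lsm2, a subunit of the U6 ring, was read at 50.7, 60.9 and 29.9 FPKM in Am against 84.6, 95.4 and 80.6 in NT, and at 1.19, 1.79 and 1.18 in RAm against 77.7, 89.4 and 87.7 in R. Its log2 change was 0.92 ± 0.28 (SE, adjusted p = 0.0591, limma) in the first set and 5.18 ± 0.22 (adjusted p = 5.24e-06) in the second, where the ratio of means was 61.2. Sf3b6, the SF3b subunit next to the branch point adenosine, was read at 100, 94.5 and 81.8 in Am against 110, 161 and 162 in NT, and at 2.63, 6.79 and 4.26 in RAm against 150, 179 and 174 in R. Srsf5 was read at 79.9, 107 and 82.3 in Am against 130, 141 and 146 in NT, and at 5.95, 6.20 and 5.01 in RAm against 126, 126 and 140 in R. In the first set both of these genes had untreated libraries that lay above the amanitin libraries without a call (adjusted p = 0.0840 and 0.0579).

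Among the core components, Sf3b1 was read at 28.8, 22.7 and 23.0 FPKM in Am against 52.5, 49.0 and 24.3 in NT, and at 5.29, 4.44 and 3.26 in RAm against 30.1, 45.6 and 42.3 in R. Its log2 change was 0.67 ± 0.32 (SE, adjusted p = 0.186, limma) and 2.92 ± 0.27 (adjusted p = 5.59e-05). Prpf8 was read at 3.90, 4.96 and 2.59 FPKM in Am against 5.97, 6.09 and 6.29 in NT, and at 0.213, 0.182 and 0.192 in RAm against 3.83, 5.83 and 4.59 in R. Prpf19 stayed near the limit on low values, at 0.486 to 1.03 in Am, 0.642 to 1.06 in NT, 0.109 to 0.659 in RAm and 0.822 to 1.52 in R, and its log2 change over all 12 libraries was 0.43 ± 0.22 (SE, adjusted p = 0.114, limma). Snrpe, the most abundant Sm gene in 2-cell embryos, was read at 440, 469 and 373 FPKM in Am against 497, 553 and 669 in NT (log2 change 0.42 ± 0.19, SE, adjusted p = 0.158), and at 55.4, 94.9 and 31.1 in RAm against 407, 526 and 586 in R.

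**Figure D4:**
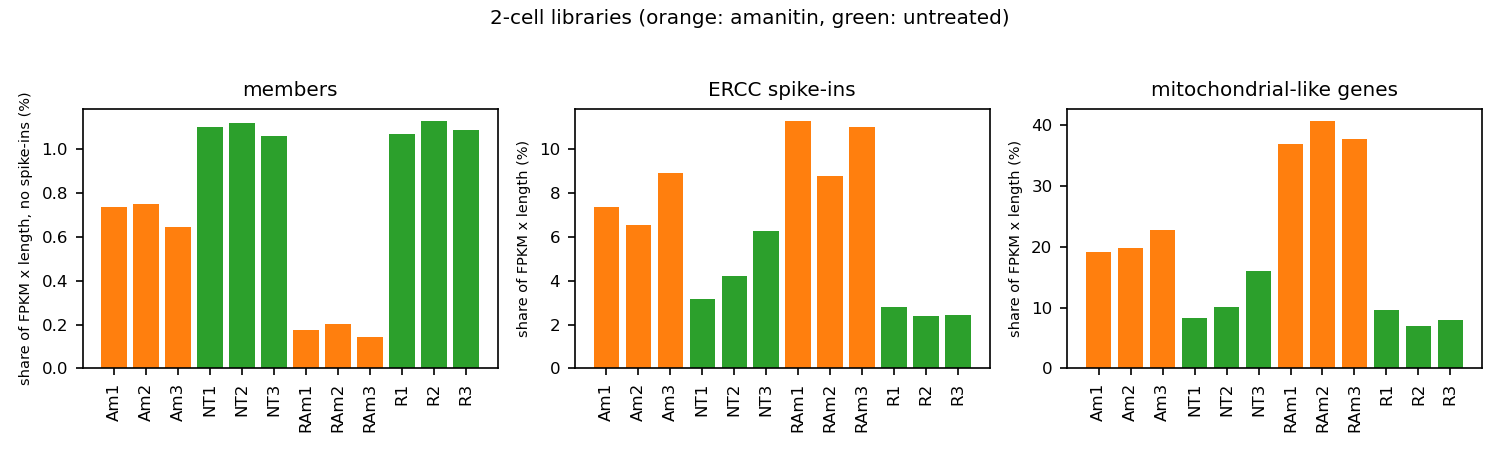
Share of length-weighted FPKM (%) taken in each 2-cell library by the members (spike-ins left out of the total), by the ERCC spike-ins and by genes that share sequence with mitochondrial transcripts. The members take 0.141 to 0.201% in RAm, 0.644 to 0.750% in Am and 1.06 to 1.13% in the untreated libraries, the mitochondrial-like genes are highest in all 3 RAm libraries, and the spike-ins take 8.77 to 11.3% in RAm and 6.54 to 8.93% in Am.

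The other spliceosome genes were counted in the same way. Over all 12 libraries 54 of 78 (69.2%) were higher and 0 lower, beside 38.9% of all genes higher, and 5 of the 54 (Clk3, Dhx38, Gemin4, Gemin8 and Xab2) passed the limit only through the untreated libraries. In the NT and Am columns 9 of 76 (11.8%) were higher and 0 lower, beside 12.7% of all genes higher, and in the R and RAm columns 71 of 77 (92.2%) were higher and 0 lower, beside 60.5%. Of these 71, 39 passed the limit only through the R libraries, which leaves 32 calls that did not. The 2 largest rises over all 12 libraries were Magoh, of the exon junction complex, and Phax, the export adaptor of U snRNAs. Magoh was read at 235, 206 and 207 FPKM in Am against 789, 1189 and 673 in NT, and at 27.5, 49.3 and 34.0 in RAm against 1116, 1419 and 1054 in R. Phax was read at 11.2, 13.6 and 13.1 in Am against 38.6, 39.3 and 40.1 in NT, and at 1.19, 0 and 1.80 in RAm against 55.3, 64.3 and 74.9 in R. In both genes all untreated libraries lay above all amanitin libraries. In 4-cell embryos Phax was likewise higher without α-amanitin, at 104, 76.2 and 73.6 FPKM against 26.3, 32.1 and 8.49 (log2 change 2.05 ± 0.46, SE, adjusted p = 0.0259, limma).

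**Figure D5:**
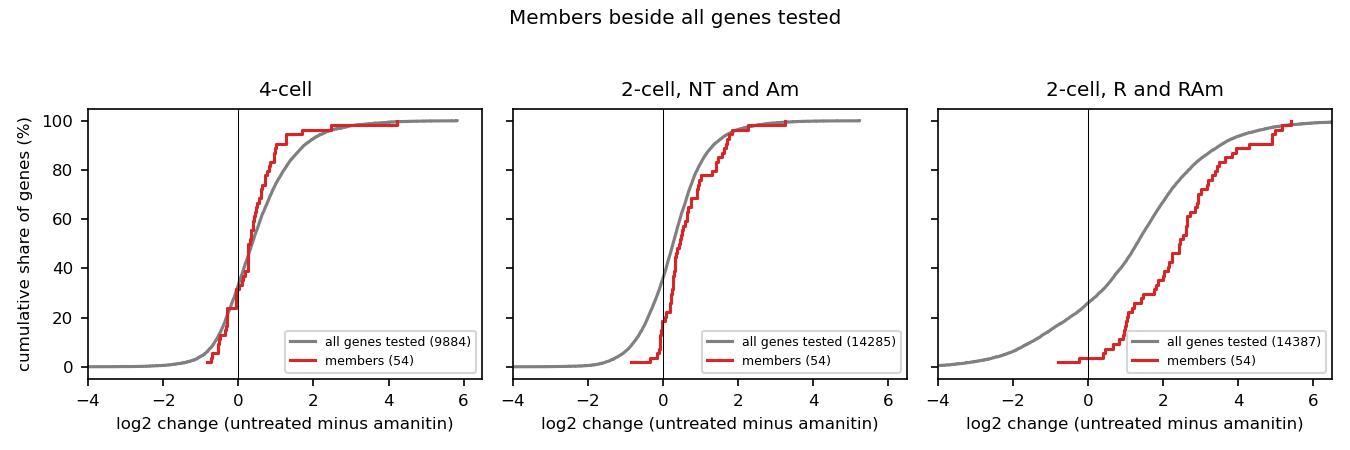
Cumulative share (%) of the members (red) and of all genes tested (grey) by log2 change, untreated minus amanitin. The curve of the members lies close to that of all genes in 4-cell embryos (medians 0.29 and 0.37), to its right in the NT and Am columns (0.43 and 0.26) and furthest to its right in the R and RAm columns (2.45 and 1.31).

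Whether the amanitin contrast differed between the stages was tested directly. Stage cannot be told apart here from pool size (3 or 5 embryos), transfer time (46 h, or 21 and 30 h) and the separately normalized tables. The 4-cell table lists no spike-ins, so the test was not run under spike-in scaling. The difference of the 4-cell contrast from the 2-cell contrast over all 2-cell libraries passed the test for 4 of 56 members. Srsf3, Srsf6 and Srsf7 had a smaller contrast in 4-cell embryos (3 members, 5.36% beside 2.46% of 17748 genes), and Lsm11 had a larger one (1 member, 1.79% beside 1.97%) but entered the test only through the untreated 4-cell libraries, so its call is no support. The count of smaller contrasts depended on the 2-cell columns used: against the NT and Am columns alone 3 members were smaller (the same 3) and 1, Cdc5l, was larger, beside 2.64% and 2.45% of all genes. Against the R and RAm columns alone 39 were smaller and 2 larger, beside 36.7% and 14.3%. For Srsf3 the difference was -3.66 ± 0.68 (SE, adjusted p = 0.00682, limma), and it was called whichever 4-cell library was left out. In 4-cell embryos Srsf3 was read at 168, 142 and 106 FPKM with α-amanitin and 108, 163 and 77.5 without it, and the groups overlapped (log2 change -0.29 ± 0.32, SE, adjusted p = 0.579). For Srsf7 the difference was -2.98 ± 0.67 (SE, adjusted p = 0.0177), lost without S15 or S18 (adjusted p = 0.0532 and 0.0521). For Srsf6, with 56.5, 60.2 and 45.1 FPKM with α-amanitin and 34.2, 43.7 and 31.6 without it in 4-cell embryos, the difference was -2.58 ± 0.72 (adjusted p = 0.0469), and the call was lost without any one of the 6 libraries (adjusted p from 0.0756 to 0.107). For Cdc5l it was 1.12 ± 0.72 (adjusted p = 0.317), and 1.97 ± 0.50 (adjusted p = 0.0441) against the NT and Am columns alone. The call of Lsm11, which did not pass the limit in the 2-cell contrast, was lost without S16, S18 or S8 (adjusted p = 0.0517, 0.0998 and 0.0662, limma) and with a pseudocount of 0.1 (0.140).

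In the replication experiment no member was called between DR and D. Of 14570 genes tested 0 were called by limma (0% of all genes), and 897 genes but 0 of 55 members had an unadjusted p under 0.05. The lowest unadjusted p of a member was 0.0502, for Prpf38b (log2 change -0.71 ± 0.30, SE). Cdc5l was read at 32.7, 19.97 and 35.7 FPKM in D and at 18.5, 32.3 and 13.5 in DR, and Sf3b4 at 24.9, 19.9 and 44.6 against 25.8, 33.2 and 21.4, with overlapping groups in both. Snrpd1 was read at 359, 301 and 492 FPKM in D and 291, 273 and 362 in DR, and Srsf7 at 269, 218 and 358 against 193, 231 and 306. The spike-in share varied from 0.0181 to 0.776% over the 6 libraries, a range that D alone spanned, and scaling to the spike-ins moved the median log2 change of all genes from 0.02 to -1.36 and that of the members from -0.09 to -1.60, with 0 calls. No difference in these genes was detected, which does not show that they were alike. Of the other spliceosome genes, 0 of 79 were called.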

How the data were processed

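RNA-seq of NT embryo pools was described from 3 tables of all genes. Per the labels and the study's methods, the authors trimmed the reads, aligned them with STAR to mm10, counted them per gene with featureCounts and deposited FPKM, the unit of all values used. Multiplied by gene length, the FPKM of the 4-cell table gave whole reads for 100.0% of values above 0 (tolerance 0.01 reads) and 1136771 to 3101002 reads a library. The other tables gave whole multiples for 40.3 to 50.5% of values, so their depths (2603946 to 19181387 reads) are estimates from the commonest value. The 2-cell table lists no mitochondrial genes, and the 4-cell table no spike-ins.

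Genes that reached 1 FPKM in 3 or more libraries were tested with limma 3.58.1 (R 4.3.3; trend) on log2(FPKM + 1) without covariates, with Benjamini-Hochberg adjustment over all genes and an adjusted p threshold of 0.05. Spike-ins were not tested. The fits were checked on simulated data. Libraries were grouped by the labels; 4 columns that match no library's labels and the table of oryx donor cells were not used. Members given in full were those called in an amanitin contrast (at most the 12 largest changes), the 4 highest in 4-cell embryos, Cdc5l, Sf3b1, Prpf8 and Prpf19, and those called in DR against D or between stages; Srsf4, Prpf38b, the other spliceosome genes beyond the 2 largest rises and the windows shown were chosen after their values were seen. Members, lists and tests were chosen with earlier results of these data known. Alternatives were another pseudocount (0.1), no filter, 2 scalings, limma-voom on recovered reads, a replicate block and leaving out each library. The column sets of the 2-cell table were separated after seeing the data. The values of 1 member are not reported here by name, though the counts include it. No pair of columns in the tables was identical.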

Additional observations from a re-analysis of the deposited data

Results flagged for a closer look

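In untreated 2-cell embryos the library NT1 lay far above the other 5 for 2 genes: Cdc5l at 32.2 FPKM and Sf3b4 at 10.3 FPKM. These were 2 of 42 groups of 6 values examined in this way, where chance gives about 1 group in 20. Without NT1, 33 of 54 members and 5485 of 16715 genes were higher over all 2-cell libraries, beside 38 of 55 and 6694 of 17196 with it.

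The amanitin contrast differed between stages, by the test of the difference, with a larger contrast in 4-cell embryos for 1 member (Lsm11, which passed the limit on low values only through the untreated 4-cell libraries, and whose call was lost without S16, S18 or S8 and with a pseudocount of 0.1) and a smaller one for 3 (Srsf3, Srsf6 and Srsf7), beside 1.97% and 2.46% of all genes. Stage cannot be told apart here from pool size, transfer time and the separately normalized tables. The call of Srsf6 was lost without any one of the 6 4-cell libraries and that of Srsf7 without S15 or S18. Against the R and RAm columns alone 39 members were smaller and 2 larger, beside 36.7% and 14.3% of all genes. The amanitin contrast also differed between the 2-cell column sets, with a larger contrast in the R and RAm columns for 39 members, beside 36.0% of all genes.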

How the results depend on the processing

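Counts of members called moved with scaling, with the limit on low values and with the 2-cell columns used. In 4-cell embryos, without the limit 1 member was higher and 0 lower, the pseudocount of 0.1 left 0 lower, and median-of-ratios scaling gave 3 lower; over left-out libraries 1 to 3 were higher and 0 to 1 lower. Over all 2-cell libraries, 21 were higher and 3 lower under median-of-ratios scaling (25 and 3 with the column set as a covariate too), and 23 were higher without the limit; over left-out libraries 28 to 45 were higher. In the NT and Am columns 2 were higher without the limit and 27 under spike-in scaling, and 3 to 15 over left-out libraries. In the R and RAm columns 4 were lower under median-of-ratios scaling and 0 without the limit, with the pseudocount of 0.1 or under spike-in scaling, and 0 to 1 over left-out libraries. Between stages, 0 were higher with the pseudocount of 0.1, and 2 higher and 39 lower against the R and RAm columns alone; over left-out 4-cell libraries 0 were higher and 1 to 2 lower. Between column sets 21 were higher and 4 lower under median-of-ratios scaling. More genes are tested without the limit; the causes were not tested. Scaling moved the median log2 change of all genes from 0.37 to 0.12 in 4-cell embryos, from 0.67 to 0.19 (median of ratios) or 1.40 (spike-ins) over all 2-cell libraries, from 0.26 to 0.07 or 0.89 in the NT and Am columns, and from 1.31 to 0.33 (median of ratios) or 2.36 (spike-ins) in the R and RAm columns. Called in all genes, the higher and lower numbers were 1093 and 112 in 4-cell embryos as deposited, 735 and 222 by the median of ratios, 673 and 59 with the pseudocount of 0.1, and 275 and 9 without the limit; over all 2-cell libraries 6694 and 1464, 3573 and 2513 by the median of ratios, and 13466 and 283 by the spike-ins. In the NT and Am columns they were 1814 and 597, 1159 and 885 by the median of ratios, 4348 and 103 by the spike-ins, and 477 and 101 without the limit, and in the R and RAm columns 8698 and 2353, 5275 and 4251 by the median of ratios, and 13221 and 670 by the spike-ins. Over left-out libraries, 57 to 1362 of all genes were higher in 4-cell embryos and 5043 to 7493 over all 2-cell libraries. In the NT and Am columns 540 to 2074 of all genes were higher over left-out libraries. The column set covariate, each set alone and the tests between sets were chosen after seeing the data. limma-voom called the same 4 members in 4-cell embryos.

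Same-numbered 2-cell columns did not deviate together (correlations 0.01 to 0.07, and 4 of 6 correlated best with their own number), so they were not treated as paired; with a replicate block 33 members were higher over all 2-cell libraries, 12 in the NT and Am columns and 48 in the R and RAm columns. The other tables allowed no replicate block, since their columns share fewer than 2 numbers. Transfer time as a covariate and limma-voom on the other tables were not run: the headers do not give the time, and the reads are not whole.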
